A study of Mus musculus with 24 samples.

Results

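Adam23, Gp2, Tdrp, Sash1, Havcr2, Avpi1, and Slc12a2 were 7 genes with far more signal in spleen-derived than in bone marrow-derived CD11b+ cells. They were chosen by that difference in log2 signal among the 32451 genes and transcripts on the array, by their gene symbols. The difference between the tissues is therefore described and not tested, and what is tested is how the genes varied within each tissue. By detection the name "spleen-restricted" held for Adam23 alone, which was well above background on none of the 11 bone marrow arrays. Gp2 and Tdrp were dim in bone marrow and well above background on 5 and 1 of its arrays, whereas Sash1, Havcr2, Avpi1, and Slc12a2 were well above background on all 11 arrays of both tissues (74.2% of all genes tested were) and were higher in spleen without being restricted to it.

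CD11b is an integrin chain on neutrophils, monocytes, macrophages, and some dendritic and natural killer cells. The spleen holds resident macrophages that the bone marrow has in other numbers, among them those of the red pulp, which clear aged erythrocytes, and those of the marginal zone. It also stores monocytes that leave it after myocardial infarction (MI), while the bone marrow makes new granulocytes and monocytes. The 7 genes do not form a known pathway. Adam23 is a member of the ADAM family without protease activity that binds LGI proteins and integrins. Gp2 is a GPI-anchored glycoprotein, best known from pancreatic secretory granules and from intestinal M cells, where it binds bacteria. Havcr2 encodes TIM-3, an immune checkpoint receptor of T cells that macrophages and dendritic cells also carry. Sash1 is a scaffold protein of Toll-like receptor signalling. Slc12a2 encodes NKCC1, which carries sodium, potassium, and chloride into cells. Avpi1 is a small protein named for its induction by vasopressin, and Tdrp is named for testis development.

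RNA was measured on one-colour Agilent arrays in CD11b+ cells of male mice of 3 genotypes, all on a Balb/C background and 10 weeks old per the methods. These were WT, HDC-KO (without histidine decarboxylase, the enzyme that makes histamine), and STAT6-KO (without the transcription factor STAT6). Cells came from the spleen or the bone marrow of control mice or of mice 1, 2, or 4 weeks after MI. Each of the 24 combinations was measured once, on cells of 5 mice together, so no condition had a replicate, and every p below rests on the spread between single arrays of different time points or genotypes. The knockouts are not described as limited to CD11b+ cells. For 2 conditions, HDC-KO control in spleen and STAT6-KO at MI 1 week in bone marrow, the arrays had too few spots to use, which left 11 arrays per tissue. Values are log2 signals minus the 75th percentile of the array, so that 0 is the brightness of its 75th percentile spot. A signal is well above background where Feature Extraction, the scanner software, called it so.

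Between 70.4 and 79.0% of spots were well above background on the spleen arrays and between 71.3 and 79.8% on the bone marrow arrays. The lowest array of each tissue was WT at MI 1 week, and all other arrays had at least 75.1%. The 6 myeloid identity genes were well above background on all arrays, Itgam, which encodes CD11b, among them. Itgam had a mean of 4.13 in spleen and 5.55 in bone marrow. Hdc was lower on all 7 HDC-KO arrays than on any WT array of the same tissue. Stat6 was lower on each of the 7 STAT6-KO arrays than on the WT array of the same tissue and time point on all 3 of its probes, but on 2 of the probes the spleen array labelled STAT6-KO at 4 weeks was above the lowest WT spleen array, and on the brightest probe the one labelled STAT6-KO at 2 weeks. The 4 arrays of a genotype and tissue carried the same scan date, which no other arrays carried. Within a tissue, genotype and scan date cannot be told apart.

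The RefSeq table for GRCm38.p6 places Adam23 at chr1:63445717-63596111, Gp2 at chr7:119442537-119459272, Tdrp at chr8:13952008-13975478, Sash1 at chr10:8722217-8945608, Havcr2 at chr11:46454931-46481255, and Avpi1 at chr19:42123275-42128993. For 5 of the 7 genes it gave the 300 bases around the annotated start (250 before and 50 after it). Gp2, Havcr2, and Avpi1 are shown because all 3 held the letters GAGGAA, the core of many binding sites of PU.1 and Spi-C, myeloid transcription factors of the ETS family. Of all 32851 promoters in the table, 28.3% held these letters on either strand. Capitals mark the motifs found, and the sequences run 5′ to 3′ on the strand of the gene. Gp2 lies on the minus strand at chr7:119459223-119459522, Havcr2 on the plus strand at chr11:46454681-46454980, and Avpi1 on the minus strand at chr19:42128944-42129243.
Gp2: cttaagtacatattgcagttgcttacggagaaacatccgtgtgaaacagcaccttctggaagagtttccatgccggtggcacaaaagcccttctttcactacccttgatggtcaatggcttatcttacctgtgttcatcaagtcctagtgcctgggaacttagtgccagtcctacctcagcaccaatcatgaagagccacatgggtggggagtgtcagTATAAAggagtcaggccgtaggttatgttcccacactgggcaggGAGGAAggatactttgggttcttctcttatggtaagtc
Havcr2: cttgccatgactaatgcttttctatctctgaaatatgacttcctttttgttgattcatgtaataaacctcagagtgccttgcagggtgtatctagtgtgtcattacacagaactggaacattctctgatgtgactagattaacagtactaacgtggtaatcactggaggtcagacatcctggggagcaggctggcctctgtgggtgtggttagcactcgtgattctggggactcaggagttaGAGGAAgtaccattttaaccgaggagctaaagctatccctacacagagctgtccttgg
Avpi1: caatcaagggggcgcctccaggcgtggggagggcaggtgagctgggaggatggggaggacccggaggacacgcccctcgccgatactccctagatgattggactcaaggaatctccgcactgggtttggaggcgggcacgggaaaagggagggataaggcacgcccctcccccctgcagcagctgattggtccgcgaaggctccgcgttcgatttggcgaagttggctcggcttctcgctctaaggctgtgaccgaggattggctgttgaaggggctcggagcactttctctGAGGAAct
In Gp2 the GAGGAA began 13 bases after the start, and a TATAAA (the TATA box) began 32 bases before it. TATAAA was found in 13.6% of all promoters. In Havcr2 the GAGGAA began 8 bases before the start, and in Avpi1 43 bases after it. The windows of Adam23 and Sash1 held no match. The Sash1 window, on the minus strand at chr10:8886021-8886320, lay inside the span given above and not at its end. The other motifs were searched on both strands and were found in none of the 5 windows, namely TGACTCA (AP-1, in 5.2% of all promoters), CACGTG (E-box, 7.15%), and GGGCGG (GC box, 35.7%). These matches describe letters and not bound sites.

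Adam23 was measured in spleen and not in bone marrow. In spleen it lay between -0.97 and 0.08, with a median of -0.35, and in bone marrow between -8.68 and -6.48. It was well above background on all 11 spleen arrays and on none of the 11 bone marrow arrays. The mean spleen signal was at least 71.5-fold higher than in bone marrow, where the bone marrow signal is set to the lowest well-measured signal of each array. The second probe of Adam23 was dimmer, between -3.21 and -2.06 in spleen, and gave a difference of at least 13.6-fold. The same detection pattern, every spleen array and no bone marrow array, was shown by 38 of the 27668 genes tested (0.137%).

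In spleen Gp2 lay between -0.49 and 1.44 around a median of 0.20, and in bone marrow it ranged from -8.50 to -5.44 around -6.35. It was well above background on all 11 spleen arrays and on 5 of the 11 bone marrow arrays, none of them WT. Its second probe was well above background on all 11 spleen arrays, between -5.10 and -3.17, and on no bone marrow array. Tdrp lay between -4.01 and 0.82 in spleen (median -1.19), by far the widest spread of the 7 genes. In bone marrow Tdrp was well above background on 1 array, HDC-KO control at -5.94, and the others reached down to -8.71. Over the 10 pairs of arrays that matched in genotype and time point, the log2 difference between spleen and bone marrow was 7.31 ± 0.67 for Adam23, 6.81 ± 0.90 for Gp2, and 6.53 ± 1.34 for Tdrp (mean ± SD, n = 10). With dim bone marrow signals set to the lowest well-measured signal of the array, the difference between the means of the 11 arrays of each tissue was 6.16 for Adam23, 6.39 for Gp2, and 4.99 for Tdrp. The order of the 3 genes thus depends on how dim signals are treated.

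The other 4 genes had measured levels in both tissues. Sash1 lay between 2.40 and 3.55 in spleen and between -2.44 and -1.28 in bone marrow, a difference of 4.67 ± 0.31 (SD, n = 10 pairs), or 25.4-fold. Havcr2 lay between 1.61 and 2.76 in spleen and between -2.58 and -1.38 in bone marrow, a difference of 4.32 ± 0.34, or 19.9-fold. Slc12a2 differed by 3.86 ± 0.31 (14.5-fold) and Avpi1 by 3.81 ± 0.32 (14.1-fold). The SDs of Slc12a2 and Avpi1 are larger than the gap between their differences. For all 7 genes the lowest spleen array was above the highest bone marrow array, and for the 4 genes measured in both tissues the gap was 1.87 (Slc12a2) to 3.68 (Sash1) on the log2 scale. Spleen arrays were higher without overlap for 5.92% of all genes tested, and 22.4% of all genes were higher in spleen at an adjusted p under 0.05 in limma. The 7 genes were picked for this contrast, and nothing is read from these counts.

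**Figure D1:**
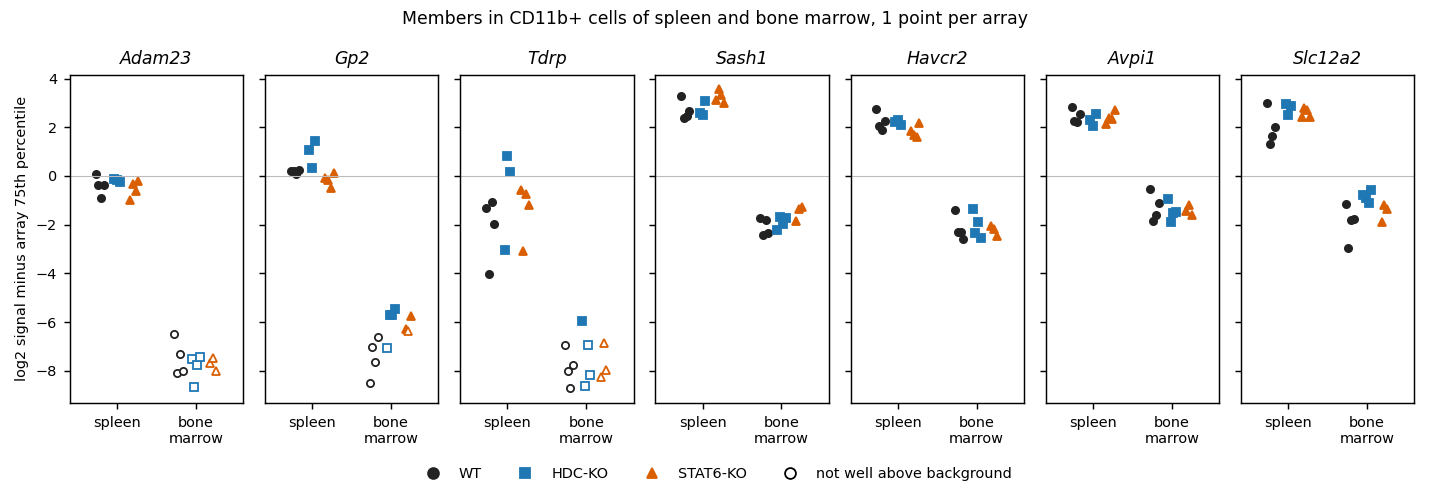
Log2 signal minus the array's 75th percentile of the 7 genes (vertical axis) on the 11 spleen and 11 bone marrow arrays, 1 point per array, with genotypes by colour and shape and open symbols for signals not well above background. Adam23, Gp2, and Tdrp sit at or below -5.44 in bone marrow, while Sash1, Havcr2, Avpi1, and Slc12a2 stay above -2.98 there.

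Cell type markers also differed between the tissues, and their part in the differences above was not tested. All 10 red pulp macrophage genes had a higher mean in spleen, with a median log2 difference of 2.03, and 9 of them passed the limma test. Their summed signal, in units of each array's 75th percentile, was 85.0 to 206 in spleen and 44.6 to 65.5 in bone marrow. The 5 marginal zone macrophage genes were all higher in spleen (median 1.98), with Cd209b well above background on no bone marrow array. All 9 conventional dendritic cell genes had a higher mean (median 2.25) and 8 passed the test, with Xcr1 well above background on no bone marrow array. The 4 neutrophil precursor genes were lower in spleen (median -3.20), as were 5 of 6 mature neutrophil genes (median -0.64). Of the 6 myeloid identity genes 5 were lower in spleen, Itgam among them, and 1 was higher (median -1.12). Of the Ly6C-low monocyte genes 4 of 5 were higher (median 1.21), as was 1 of 2 Ly6C-high monocyte genes (median 0.49). Of 4 plasmacytoid dendritic cell genes 1 was higher and 1 lower (median 0.07), and of 5 erythroid genes 2 were higher (median -0.29). Of the plasma cell genes 3 of 4 were higher (median 2.25), as were 4 of 6 NK cell genes (median 2.19) and 5 of 6 B cell genes (median 1.41), while the sixth B cell gene was lower. All 5 genes of megakaryocytes and platelets were lower in spleen (median -1.61), as were 6 of 9 genes of endothelium and stroma (median -1.05). Of the 6 T cell genes 5 had a higher mean in spleen (median difference of the list 1.69), and Cd3d, the brightest of them in bone marrow, had a lower one. Their summed signal overlapped, at 6.47 to 30.5 in spleen and 12.04 to 22.15 in bone marrow. In bulk RNA, fewer cells of a type and less RNA per cell cannot be told apart.

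By the root mean square (RMS) difference of centred log2 signals over the 22 arrays, with dim signals set to the floor of their array, Adam23 and Gp2 were each other's nearest gene (0.51). Raver2, an RNA-binding protein, was next for both, and Adamdec1, a secreted ADAM-like protease, the third. The nearest genes of Sash1 were Asb2 (0.43), Tbc1d4 (0.45), and Rtn1 (0.50), and those of Havcr2 were Avpi1 (0.37), Dao (0.44), and Tbc1d4 (0.44). Avpi1 was nearest to Arhgap22 (0.32), St8sia6 (0.35), and Procr (0.36), and Slc12a2 to Gfra2 (0.37), Ddr1 (0.45), and Chn2 (0.49). The nearest genes of Tdrp were Dapl1 (0.40), Camk4 (0.46), a kinase of T cell receptor signalling, and Trat1 (0.56), an adaptor of the T cell receptor. These are descriptions over arrays that share scan dates and scaling. The search covered 14898 candidate genes and not all genes on the array. The measure includes the difference between the tissues, for which the members were picked, so nearness partly follows from that choice. With the floor this difference was 6.16 for Adam23 and 6.39 for Gp2, against SDs of 0.32 and 0.55 within spleen. Likeness within a tissue was not tested.

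Within the spleen, Tdrp changed with time after MI. On the brighter probe WT had -1.32 in control, -4.01 at 1 week, -1.08 at 2 weeks, and -1.97 at 4 weeks. STAT6-KO had -0.58, -3.08, -0.73, and -1.19 at these times. HDC-KO had -3.05 at 1 week, 0.82 at 2 weeks, and 0.16 at 4 weeks, without a usable control array. The 3 arrays of MI 1 week, between -4.01 and -3.05, lay below the other 8 spleen arrays, between -1.97 and 0.82. In a limma fit over the 11 spleen arrays, with genotype and time as terms, Tdrp fell by 2.87 ± 0.33 (SE) on the log2 scale at MI 1 week against control, 7.31-fold (adjusted p = 0.00864). The second probe fell by 2.13 ± 0.34 (adjusted p = 0.0143 over all probes). At 2 weeks the difference from control was 0.18 ± 0.33 (adjusted p = 0.765) and at 4 weeks -0.49 ± 0.33 (adjusted p = 0.678). Of the 7 genes, 1 was lower at MI 1 week, beside 6.27% of all 26482 genes tested, and 0 were higher (1.63% of all genes). After normexp background correction the difference was -1.95 with an adjusted p of 0.403, and without the WT arrays it was -2.97 with an adjusted p of 0.305.

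T cell genes moved with Tdrp. Of the 6 genes in the T cell list, 5 fell at MI 1 week in the same limma fit, namely Cd3e, Cd3g, and Cd247 (chains of the CD3 complex), Lck (its kinase), and Themis. Cd3e fell by 1.98 ± 0.32 (adjusted p = 0.0148) and Lck by 1.39 ± 0.25 (adjusted p = 0.0204), and Cd3d differed by -0.08 ± 0.40 (adjusted p = 0.914). The summed signal of the list was 6.47 to 8.96 on the 3 arrays of MI 1 week and 11.4 to 30.5 on the other 8 spleen arrays. All 6 genes were well above background on some spleen arrays, 5 of them on all 11. The 3 genes nearest to Tdrp were chosen for likeness over these same arrays, so their changes partly follow from that choice and support nothing. Dapl1 fell by 2.48 ± 0.30 at MI 1 week (adjusted p = 0.00877), Camk4 by 2.02 ± 0.40 (adjusted p = 0.0272), and Trat1 by 1.70 ± 0.23 (adjusted p = 0.0103). In the same comparison 2 of 4 neutrophil precursor genes rose, with a median over the list of 1.40, and 1 of 6 NK cell genes, 1 of 9 conventional dendritic cell genes, and 1 of 7 endothelial and stromal genes fell. After normexp background correction no gene was called at MI 1 week, so the calls in this paragraph were lost, as that of Tdrp was. The part of T cell RNA in the Tdrp signal was not tested.

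**Figure D2:**
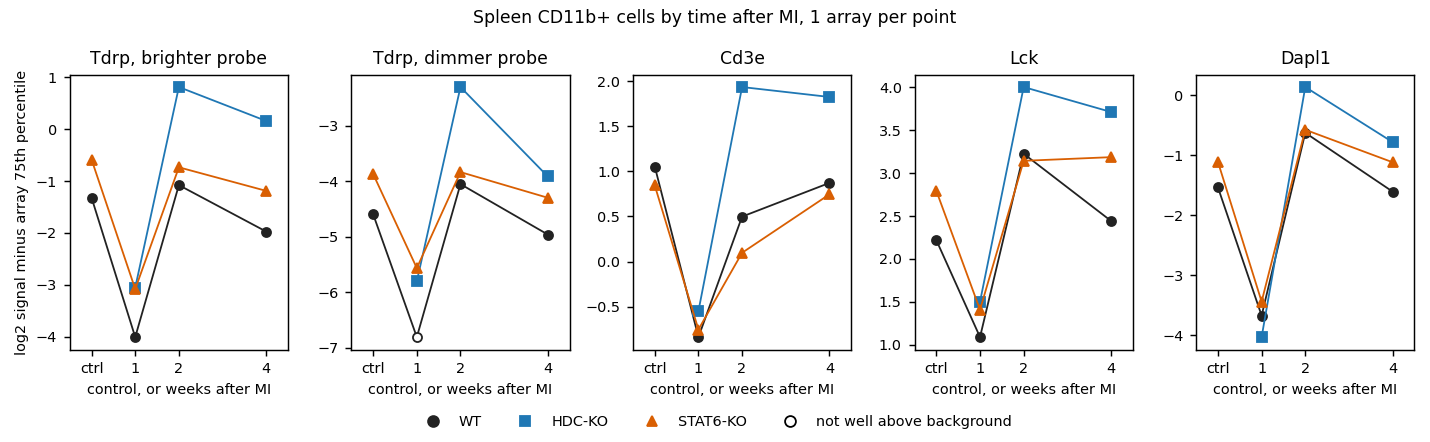
Log2 signal minus the array's 75th percentile in spleen (vertical axis) against time (horizontal axis, control or weeks after MI) for both Tdrp probes, for the T cell genes Cd3e and Lck, and for Dapl1, the gene nearest to Tdrp; 1 array per point, lines join arrays of 1 genotype, and the open symbol is not well above background. In each genotype MI 1 week is the lowest point in the panels shown, for Tdrp between -4.01 and -3.05 on the brighter probe. Dapl1 was chosen for likeness to Tdrp over these arrays. Of the T cell genes not shown, Cd3d went otherwise. In WT it was 1.74 in control and 2.59 at MI 1 week, and in STAT6-KO it was lowest at 4 weeks (1.46). In HDC-KO it was lowest at 1 week (1.25).

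Tdrp was also higher in HDC-KO than in WT spleen at each shared time point, by 0.96 at 1 week, 1.89 at 2 weeks, and 2.13 at 4 weeks. The fitted difference was 1.67 ± 0.27 (adjusted p = 0.028), or 3.18-fold. In this comparison 1 of the 7 genes rose (2.07% of all genes did) and 0 fell (0.748%). The call was lost with the dimmer probe, at 1.27 ± 0.28 (adjusted p = 0.0587 over all probes), with normexp (1.42, adjusted p = 0.976), and when any 1 of the 3 MI time points was left out (1.44 to 2.04, adjusted p 0.06 to 0.189). Of the 6 genes in the T cell list 1 passed the test, Themis, which rose by 1.14 ± 0.23 (adjusted p = 0.0477). The median difference of the list was 1.01, and Cd3d was at -0.58 ± 0.34 (adjusted p = 0.356). Of the 3 genes nearest to Tdrp, Trat1 rose by 1.97 ± 0.19 (adjusted p = 0.00865), whereas Camk4 was at 1.49 ± 0.33 (adjusted p = 0.0579) and Dapl1 at 0.43 ± 0.25 (adjusted p = 0.359). Since these 3 genes were chosen for likeness to Tdrp over the same arrays, their values are no separate support. In STAT6-KO spleen Tdrp was 0.70 ± 0.25 above WT (adjusted p = 0.15).

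Gp2 was higher on all 3 HDC-KO spleen arrays than on any of the 4 WT arrays. HDC-KO had 1.09 at 1 week, 0.34 at 2 weeks, and 1.44 at 4 weeks, while the WT arrays lay between 0.06 and 0.25. The fitted difference of 0.79 ± 0.18 did not pass the test (adjusted p = 0.0599). On the second probe it was 0.61 ± 0.17 (adjusted p = 0.0988 over all probes). Gp2 was the 1 member of 7 whose HDC-KO arrays were all above WT, as were those of 5.62% of all genes. In STAT6-KO spleen Gp2 lay between -0.49 and 0.13, overlapping with WT, at -0.33 ± 0.16 (adjusted p = 0.258).

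Slc12a2 differed between the genotypes in its course after MI. In WT spleen it was 2.99 in control, 1.30 at 1 week, 1.63 at 2 weeks, and 2.02 at 4 weeks. In STAT6-KO spleen it was 2.43, 2.80, 2.71, and 2.43, and in HDC-KO spleen 2.97, 2.50, and 2.88 at 1, 2, and 4 weeks. All 7 knockout arrays were therefore above the 3 WT arrays of MI, and the WT control was the highest spleen array. The fitted difference was 0.94 ± 0.34 for HDC-KO against WT (adjusted p = 0.161) and 0.61 ± 0.31 for STAT6-KO (adjusted p = 0.28). Without the control arrays HDC-KO was 1.13 above WT (adjusted p = 0.047). HDC-KO had no usable control array, and that setting drops the high WT control, so this call is not set above the main fit. The difference in time course between genotypes was not tested. Red pulp macrophage genes were also highest in control among the WT spleen arrays. Their summed signal in WT spleen was 160 in control and 85.0, 95.3, and 93.5 at 1, 2, and 4 weeks. In STAT6-KO spleen it was 172 to 206 on the 4 arrays, and in HDC-KO spleen 142, 98.8, and 167 at 1, 2, and 4 weeks. None of the 10 red pulp genes passed the test at MI 1 week, and their part in the Slc12a2 values was not tested.

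Sash1, Havcr2, and Avpi1 varied less in spleen. In WT all 3 were highest in control, Sash1 at 3.29 against 2.40 to 2.68 after MI, Havcr2 at 2.76 against 1.87 to 2.24, and Avpi1 at 2.85 against 2.21 to 2.54. In STAT6-KO Sash1 lay between 3.0 and 3.55 and was 0.54 ± 0.23 above WT (adjusted p = 0.218). Havcr2 in STAT6-KO lay between 1.61 and 2.16 and was at -0.41 ± 0.18 from WT (adjusted p = 0.233). Avpi1 differed by -0.06 ± 0.17 in STAT6-KO (adjusted p = 0.869) and by -0.14 ± 0.19 in HDC-KO (adjusted p = 0.724). Adam23 lay within 1.05 over all 11 spleen arrays, and its differences were -0.14 ± 0.23 in STAT6-KO and 0.21 ± 0.26 in HDC-KO (adjusted p = 0.752 and 0.682).

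Over all 7 genes, none passed the test for STAT6-KO against WT in spleen (1.96% of all genes did), for MI 2 weeks (2.25%), or for MI 4 weeks (0%) against control in limma. At an unadjusted p under 0.05 there were 2 of the 7 in the first (Sash1 and Tdrp) and 0 in the other comparisons, beside 6074, 6286, and 2304 of all 26482 genes. The median of the 7 genes was -0.06 for STAT6-KO and 0.21 for HDC-KO, and -0.30, -0.38, and -0.22 at 1, 2, and 4 weeks after MI. The medians of all genes were -0.06, 0.06, -0.16, -0.13, and 0.08 in the same order.

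**Figure D3:**
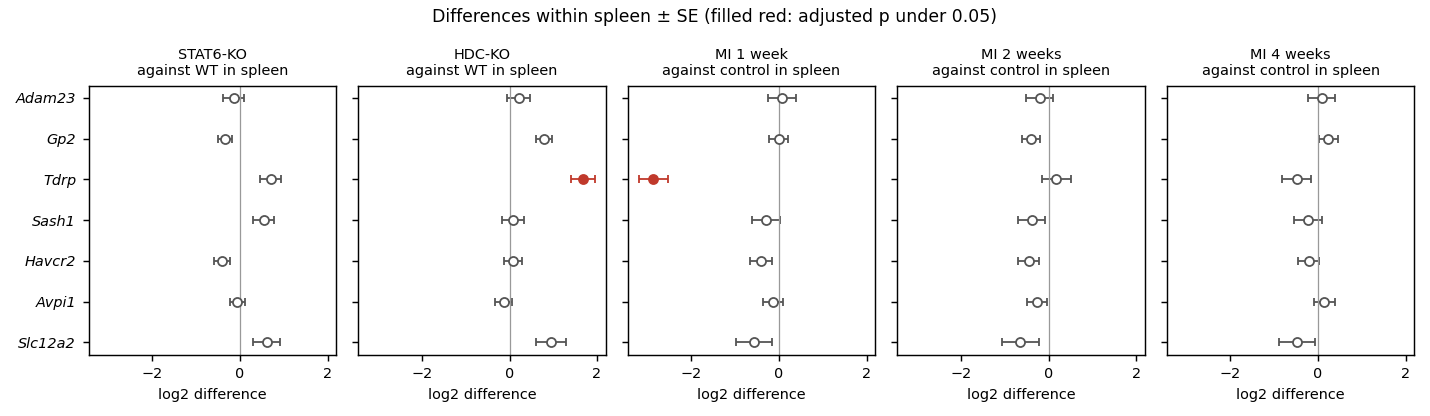
Fitted log2 differences of the 7 genes within spleen with their SE (horizontal axis), for 2 genotype comparisons and 3 comparisons of time after MI, with filled red points for an adjusted p under 0.05. The 2 red points are both Tdrp, at 1.67 in HDC-KO and at -2.87 for MI 1 week.

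**Figure D4:**
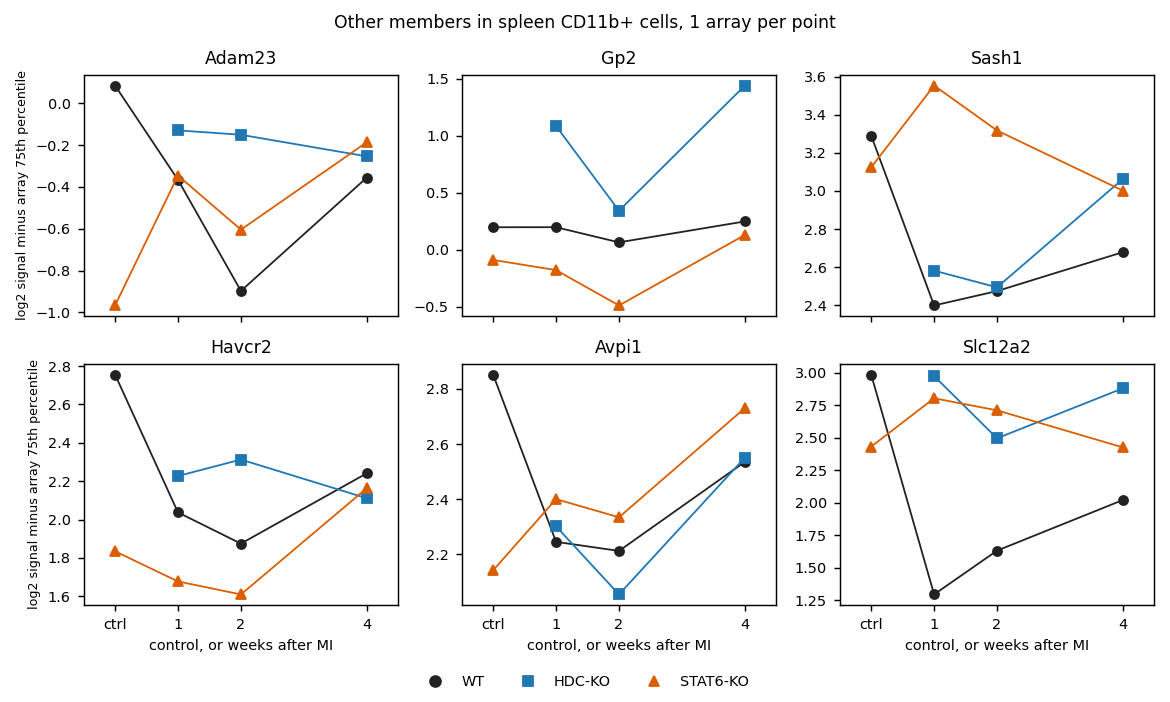
Log2 signal minus the array's 75th percentile of the other 6 genes in spleen (vertical axis, scaled for each gene) against time (horizontal axis, control or weeks after MI), 1 array per point, with lines joining arrays of 1 genotype. The WT control is the highest WT point for Adam23, Sash1, Havcr2, Avpi1, and Slc12a2, and Gp2 in WT stays between 0.06 and 0.25.

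In bone marrow 5 of the 7 genes could be tested, since Adam23 and Tdrp were well above background on fewer than 2 arrays. Gp2 was below the detection call on all 4 WT arrays (-8.50 to -6.61), and well above background on 3 of 4 HDC-KO arrays and 2 of 3 STAT6-KO arrays. HDC-KO had -7.08 in control and -5.72, -5.69, and -5.44 at 1, 2, and 4 weeks, and STAT6-KO had -6.27 in control and -6.35 and -5.75 at 2 and 4 weeks. Gp2 passed the filter of 2 arrays well above background only through knockout arrays, so its call is no independent support. In limma Gp2 was higher in STAT6-KO by 1.44 ± 0.29 (adjusted p = 0.0396), 1 of the 5 genes tested, beside 3.99% of all genes. Its 3 STAT6-KO arrays were all above the 4 WT arrays, as was so for 10.1% of all genes. The size of this difference rests on signals below background. Against the lowest well-measured signal of each WT array, mean Gp2 was 1.16-fold higher in STAT6-KO and 1.28-fold higher in HDC-KO. These means include knockout arrays not well above background (HDC-KO control and STAT6-KO at 2 weeks), so they are not strict bounds. The second probe, well above background on no bone marrow array, had means of -7.72 in WT, -8.36 in HDC-KO, and -7.17 in STAT6-KO. With dim signals set to the lowest well-measured signal of their array, the STAT6-KO difference was 0.36 (adjusted p = 0.499). With normexp it was 0.14 (adjusted p = 0.876). The call was also lost with quantile normalization (1.22, adjusted p = 0.0599) and with each of the 4 time points left out (1.04 to 1.70, adjusted p 0.0683 to 0.176). For HDC-KO the fitted difference was 1.46 ± 0.26 (adjusted p = 0.0816).

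Slc12a2 was higher on all 4 HDC-KO bone marrow arrays (-1.10 to -0.58) than on any WT array (-2.98 to -1.16). This held for 3.77% of all genes, and the fitted difference of 1.09 ± 0.31 did not pass the test (adjusted p = 0.149). The lowest WT array was MI 1 week, as in spleen. In both tissues this array also had the smallest share of spots well above background, and the part of array quality was not tested. Sash1, Havcr2, and Avpi1 differed from WT by -0.31 to 0.57 in the knockouts, with adjusted p between 0.256 and 0.722. None of the 5 genes passed the limma test for HDC-KO in bone marrow (0.443% of all genes did), and 2 of the 5, Gp2 and Slc12a2, had an unadjusted p under 0.05.

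**Figure D5:**
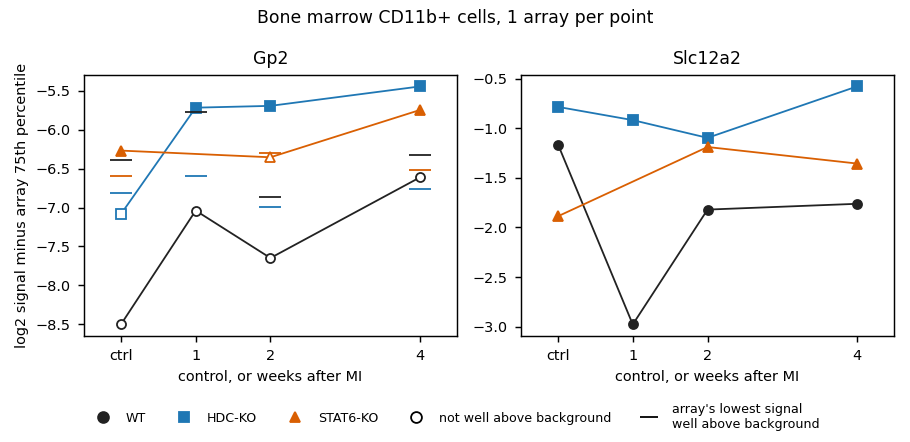
Log2 signal minus the array's 75th percentile of Gp2 and Slc12a2 in bone marrow (vertical axis) against time (horizontal axis, control or weeks after MI), 1 array per point, with open symbols for signals not well above background and short bars for the lowest well-measured signal of each array. All 4 WT points of Gp2 are open and lie below their bars, and the 4 HDC-KO points of Slc12a2 lie between -1.10 and -0.58, above all WT points.

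Of 41 relatives and partners of the 7 genes found on the array, 37 could be tested between the tissues. Of these, 9 were higher and 9 lower in spleen in limma, beside 22.4 and 32.1% of all genes. Adam22, a relative of Adam23 that also lacks protease activity and binds LGI proteins, was higher by 3.17 ± 0.17 (adjusted p = 7.34e-08), and was well above background on all arrays of both tissues. The LGI ligand Lgi1 was well above background on no array. Of the TIM family, Timd4, a phosphatidylserine receptor of resident macrophages, was higher by 1.97 ± 0.19 (adjusted p = 5.58e-06) and Timd2 by 1.81 ± 0.25 (adjusted p = 8.62e-05). Timd2 was well above background on 10 spleen and 3 bone marrow arrays, so the size of its difference rests partly on dim signals. Lgals9, the galectin described as a TIM-3 ligand, was lower in spleen, at -1.56 ± 0.17 (adjusted p = 1.45e-05), whereas Fyn, a kinase that binds the tail of TIM-3, was higher by 2.88 ± 0.14 (adjusted p = 4.83e-08). Of the cation-chloride cotransporters, Slc12a4 and Slc12a7 were higher (1.12 and 1.38) and Slc12a5 was lower (-1.87), with adjusted p of 7.12e-05, 1.84e-05, and 1.02e-05. Slc12a1, the kidney relative of Slc12a2, was well above background on no array. Sash3 and Samsn1, the relatives of Sash1, were lower in spleen, at -0.47 ± 0.10 and -0.34 ± 0.12 (adjusted p = 0.00241 and 0.0352), and Ikbkb, a kinase of the NF-κB pathway, was higher by 0.34 ± 0.12 (adjusted p = 0.0263). Of the integrin chains, Itgb3 was lower, at -1.22 ± 0.12 (adjusted p = 5.27e-06), and Itgav higher by 0.40 ± 0.16 (adjusted p = 0.0451). Dmbt1, a secreted scavenger receptor listed with Gp2, was higher by 2.45 ± 0.37 (adjusted p = 0.000139), while being well above background on 9 spleen and 2 bone marrow arrays. Bag6, which binds TIM-3, was lower, at -0.69 ± 0.11 (adjusted p = 0.000274). The kinases Stk39 and Wnk4, which act on the cotransporters, were lower at -0.53 ± 0.13 and -1.24 ± 0.26 (adjusted p = 0.00405 and 0.00153). Within the spleen 1 of the 37 relatives passed any of the 5 tests. This was Wnk4, which rose at MI 1 week by 0.98 ± 0.19 (adjusted p = 0.0254) while being well above background on 3 of 11 spleen arrays. Wnk4 lay between -7.97 and -6.34 in spleen, so this rise and its difference between the tissues rest on signals near background. In bone marrow Lgi2 rose in STAT6-KO by 2.53 ± 0.52 (adjusted p = 0.0403), and none passed in HDC-KO.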

How the data were processed

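RNA of CD11b+ cells was hybridised by the authors to Agilent mouse 4x44K arrays in 1 colour (Cy3). The deposited values used here are spot intensities (gProcessedSignal) on the linear scale from Agilent Feature Extraction 11.0.1.1, background-subtracted and not scaled between arrays. The submitters' processing notes name GCRMA and the methods name Genespring, and the output of neither was used.

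Each array had 43020 spots that were not controls, for 39429 probes. Outlier spots were left out (3055 over 22 arrays), spots of a probe were averaged, and log2 signals were taken minus the 75th percentile of the array (928 to 2461 on the linear scale in spleen, 963 to 1780 in bone marrow). The probe with the highest mean stood for a gene. A gene entered a fit where at least 2 of its arrays were well above background. limma 3.58.1 in R 4.3.3 was fitted over all genes, with 10 tissue pairs as a block, or with genotype and time as additive terms over the 11 arrays of a tissue. Calls needed a Benjamini-Hochberg adjusted p under 0.05. The fits were tested on simulated data. The number of arrays limits the precision.

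Alternatives were normexp (offset 50, on the median spot and background signals), quantile normalization, and a floor at the lowest well-measured signal. Others were detection on every array, the mean over probes, scan date as a random block (tissues only), and leaving out each time point or genotype. A test of each probe and a fit without the array STAT6-KO spleen MI 4 weeks were added after seeing the data. The members and all gene lists were chosen with earlier results of these data known. The members were named always, relatives where 1 passed a test or a count called for it, and the 3 nearest genes by a fixed measure. The result of 1 relative that passed between the tissues is not reported here.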

Additional observations from a re-analysis of the deposited data

Results flagged for a closer look

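Of the 7 genes, 2 moved in opposite directions after MI in WT and STAT6-KO spleen, among 15 pairs of groups looked at. Adam23 was lower than control at all 3 MI time points in WT (mean difference -0.62) and higher at all 3 in STAT6-KO (0.59). Avpi1 showed the same signs, with a mean of -0.52 in WT and 0.35 in STAT6-KO. Both means rest on the single control array of each genotype, and the difference between the genotypes was not tested. No array stood apart from its group by Dixon's criterion in the 22 groups of 4 arrays looked at.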

How the results depend on the processing

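Between the tissues the 7 genes were higher in spleen in every setting run. The median of their differences was 4.67, and it was 3.97 with normexp background correction and 4.09 with only genes well above background on every array, which leaves out 3 of the 7 genes. With normexp 0 genes were called for MI 1 week (2092 in the main fit) and 0 for MI 2 weeks (595 in the main fit). In spleen 4 were called for STAT6-KO (519 in the main fit) and 6 for HDC-KO (745). In bone marrow 513 were called for STAT6-KO (1252 in the main fit) and 56 for HDC-KO (120). These counts are totals of each fit, and their overlap was not counted. With normexp 0 members were called for MI 1 week, for HDC-KO in spleen, and for STAT6-KO in bone marrow. With quantile normalization 428 genes were called for HDC-KO in spleen, 1280 for MI 1 week, and 284 for MI 2 weeks. With the floor 454 were called for HDC-KO in spleen and 1 for MI 4 weeks. With detection on every array 301 were called for HDC-KO, 1013 for MI 2 weeks, and 6 for MI 4 weeks. Leaving out the STAT6-KO MI 4 weeks array of spleen, 215 genes were called for STAT6-KO, and the member calls in spleen remained those of Tdrp. The cause of these moves was not tested.

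The call of Gp2 in STAT6-KO bone marrow was lost (0 members called) with normexp, quantile normalization, the floor, the mean over probes, and each time point left out, and with detection on every array Gp2 was not tested. Leaving out a time point or genotype in turn gave 0 to 3355 genes for MI 1 week (0 to 1 members), 0 for MI 2 weeks, 30 to 965 for STAT6-KO in spleen, 0 to 1291 for HDC-KO in spleen (0 to 2 members), 11 to 1010 for STAT6-KO in bone marrow (0 members), and 3 to 393 for HDC-KO in bone marrow (0 to 1 members). The 0 for MI 1 week came without WT, and the 0 for HDC-KO in spleen without MI 1 week.

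Signs turned only for differences that were not called. With the second probe Adam23 was at -0.10 for MI 1 week, -0.39 for MI 4 weeks, and 0.015 for STAT6-KO in spleen, and Gp2 at 0.49 for MI 1 week. With the mean over probes Adam23 was at -0.015 for MI 1 week and -0.15 for MI 4 weeks, and Gp2 at 0.24 for MI 1 week. With normexp Gp2 was at 0.034 for MI 1 week and Havcr2 at -0.026 for HDC-KO in bone marrow. Leaving out the STAT6-KO MI 4 weeks array of spleen, Adam23 was at -0.11 for MI 4 weeks. Leaving out a genotype gave, for MI 1 week, -0.51 (without STAT6-KO) to 0.63 (without WT) for Adam23, -0.56 to 0.30 for Avpi1, -0.90 to 0.23 for Sash1, -1.42 to 0.39 for Slc12a2, and -0.045 to 0.051 for Gp2. For MI 2 weeks it gave -0.79 to 0.49 for Adam23, -0.70 to 0.15 for Avpi1, -0.90 to 0.071 for Sash1, and -1.49 to 0.10 for Slc12a2. For MI 4 weeks it gave -0.57 to 0.65 for Adam23, -0.29 to 0.59 for Avpi1, -0.66 to 0.10 for Havcr2, -0.52 to 0.20 for Sash1, and -1.10 to 0.15 for Slc12a2. Leaving out a time point gave, for STAT6-KO in spleen, -0.29 to 0.16 for Adam23 and -0.14 to 0.16 for Avpi1. For HDC-KO in spleen it gave -0.022 to 0.36 for Adam23, -0.087 to 0.21 for Havcr2, and -0.093 to 0.20 for Sash1, and for STAT6-KO in bone marrow -0.31 to 0.086 for Havcr2. Dim signals limit Gp2, Tdrp, and Adam23 in bone marrow.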
